A study of Homo sapiens with 12 samples.

Results

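The caspases and the apoptosome were represented by 8 genes, CASP2, CASP4, CASP6, CASP8, CASP9, CASP10, APAF1 and CYCS, which were taken by gene symbol from a table of 60671 genes measured in 12 RNA libraries. The libraries fell into 4 groups of 3, all collected after 48 h. NC+DMSO were control cells with the solvent DMSO, NC+VCR were control cells with vincristine (VCR), PTPN21+DMSO were cells overexpressing PTPN21 with DMSO, and PTPN21+VCR were these cells with VCR. VCR is a vinca alkaloid that blocks the assembly of microtubules, and PTPN21 is a cytosolic protein tyrosine phosphatase with a FERM domain. The labels name all cells as Jurkat, a human line from acute lymphoblastic leukemia of T cells, and the controls as WT. The controls carried a lentiviral pHIV7/SFFV-GFP vector and the PTPN21 cells a pHIV7/SFFV-PTPN21-3×FLAG vector, in which the viral SFFV promoter drives the transgene. The VCR dose used for these libraries was not given in the sources used here. The sequencing was done to look for genes involved in the inhibition of apoptosis by PTPN21.

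Caspases are proteases that are made as inactive zymogens and cut their substrates after aspartate residues. In the intrinsic pathway, cytochrome c leaves the mitochondria and binds APAF1, which then assembles into the apoptosome and activates the initiator CASP9. In the extrinsic pathway, death receptors recruit and activate CASP8 and CASP10, and both routes lead to the executioner caspases, CASP6 among them. Cleavage and assembly of these proteins cannot be seen in RNA, and only transcript levels are described here.

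Levels are given in FPKM, fragments per kilobase of transcript scaled to the mapped fragments of a library, so they are per length and can be compared between genes. PTPN21 itself was at 0.0212 to 0.0934 FPKM in NC+DMSO and 0.16 to 0.569 in NC+VCR, and at 7.93 to 10.5 in PTPN21+DMSO and 4.34 to 6.53 in PTPN21+VCR. The overexpressing libraries thus did not overlap with the controls. The labelled cell type was less clear. Of 9 T lineage markers, CD3D alone reached a mean of 1 FPKM, with 61.8 to 139.7 FPKM, whereas LCK, CD247 and CD28 were listed at 0 in all 12 libraries and CD3E did not exceed 0.146 FPKM. Among erythroid markers, HBA1 was at 49.4 to 190.1 FPKM, and HBB was at most 1.66 FPKM and listed at 0 in 7 libraries. HBG2, which has a near-identical copy, and GATA1, both looked up after these markers had been seen, were at 559.7 to 2985.3 and 13.5 to 106.5 FPKM. None of 4 B lineage markers reached a mean of 1 FPKM, and 2 of 4 myeloid markers did. The cells are therefore called by their label only. In low values, where single fragments show as steps, relative depth was 0.889 to 0.993 in NC+DMSO, 1.02 to 1.1 in NC+VCR, 1.39 to 1.46 in PTPN21+DMSO and 1.25 to 1.38 in PTPN21+VCR. Depth therefore differed more between PTPN21 and control cells than between VCR and DMSO. The methods speak of replicates in each group for the sequencing and, in general, of repeated independent experiments, but do not say whether the libraries of a group came from separate cultures. If they did not, the p-values measure only the spread between these libraries, which may be technical.

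All 8 genes have an entry in GENCODE release 29 on GRCh38. CYCS lies on chromosome 7 from 25120091 to 25125361 on the minus strand, and CASP2 on the same chromosome from 143288215 to 143307696 on the plus strand. APAF1 lies on chromosome 12 from 98645141 to 98735433 on the plus strand, and its start is separated by 27 bases from the start of IKBIP, which is read in the opposite direction. CASP9 lies on chromosome 1 from 15490832 to 15526534 on the minus strand. CASP8 and CASP10 are neighbours on chromosome 2, with CASP10 from 201182881 to 201229406 and CASP8 from 201233443 to 201287711, both on the plus strand. They are 4036 bases apart, and CFLAR, the gene of their catalytically inactive relative, ends 6193 bases before CASP10. CASP6 lies on chromosome 4 from 109688622 to 109703583 and CASP4 on chromosome 11 from 104942866 to 104969436, both on the minus strand. CASP6 shares 105 bases with MCUB, a gene of the opposite strand at a mean of 13.1 FPKM, and it is not stated whether fragments were counted by strand. CYCS has 41 pseudogenes in the table, which are copies of its processed transcript. Of these, 31 were listed at 0 in all 12 libraries, and the 41 together had 0.191 to 4.0 FPKM per library, so fragments assigned to them were few beside those of CYCS.

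RefSeq promoter windows of 300 bases (250 before the start and 50 from it, GRCh38.p14) were found for 7 of the 8 genes, 11 windows in all, and for CASP10 none was used here. The windows of CYCS and CASP9 are shown for 2 reasons. CYCS was the only gene of the group to pass the tests below, and CASP9 was the one tested with the widest spread between replicates. The CYCS window is chr7:25125211-25125510 on the minus strand, and its capitals mark the only match to GCATGCGC, the core of the binding motif of NRF1, a factor known for its sites in genes of mitochondrial proteins. The CASP9 window is chr1:15524166-15524465 on the minus strand, one of 2 windows of this gene, and its capitals mark 8 matches to the GC box GGGCGG, some of which overlap each other.
CYCS: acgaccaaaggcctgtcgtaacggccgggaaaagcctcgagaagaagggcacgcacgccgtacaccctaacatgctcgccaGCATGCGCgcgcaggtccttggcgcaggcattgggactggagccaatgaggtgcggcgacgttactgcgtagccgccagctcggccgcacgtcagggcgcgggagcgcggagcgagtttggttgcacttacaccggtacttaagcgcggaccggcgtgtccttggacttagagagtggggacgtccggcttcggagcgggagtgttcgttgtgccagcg
CASP9: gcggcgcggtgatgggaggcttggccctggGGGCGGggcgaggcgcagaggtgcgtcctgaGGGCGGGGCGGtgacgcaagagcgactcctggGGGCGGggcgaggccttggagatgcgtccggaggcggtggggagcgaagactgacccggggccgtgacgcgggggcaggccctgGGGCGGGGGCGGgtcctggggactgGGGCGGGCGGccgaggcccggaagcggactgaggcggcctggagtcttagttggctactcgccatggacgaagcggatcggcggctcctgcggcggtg
The GCATGCGC match began 169 bases before the start. It was found in 1 of the 11 windows, and 3.05% of 35116 windows hold it on either strand. GGGCGG was found in 7 of the 11 windows and in 45.0% of all windows, and CCAAT in 6 of the 11, that of CYCS included, and in 34.6% of all. The ETS motif CCGGAAG was present in a CASP9 window (10.3% of all windows), and TATAAA (11.5%) and the GATA motif AGATAA (10.3%) were each present in a CASP8 window. No window of the 7 genes held TGACGTCA, TTTGGCGC, TTTCCCGC or TTTCGCGC on either strand, which were found in 1.85%, 0.652%, 1.63% and 0.515% of all windows. No matches of different motifs overlapped in these windows. These are descriptions of letters and not of bound sites.

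The 8 genes spanned a wide range of levels, and CYCS stood far above the caspases. In NC+DMSO the mean level was 118.4 ± 12 FPKM for CYCS (SD, n = 3), 13.2 ± 2.41 for CASP8, 7.87 ± 1.02 for CASP6, 3.13 ± 0.902 for CASP10, 2.8 ± 1.7 for CASP2, 2.59 ± 0.309 for CASP9, 1.59 ± 0.441 for APAF1 and 0.0709 ± 0.0614 for CASP4. The ranges of CASP10 and CASP2 overlapped, as did those of CASP2 and CASP9, whereas every other pair of neighbours in this order was apart. CYCS and then CASP8 led in all 4 groups, with ranges apart from each other and from the next gene. Below them the order changed with the group, and CASP9, below CASP6, CASP10 and CASP2 in NC+DMSO, followed CASP8 in PTPN21+VCR with 6.57 ± 2.0 FPKM, where its range overlapped with that of CASP6. APAF1 and CASP4 were the lowest in all groups, and their ranges overlapped in PTPN21+VCR. Thus the scaffold of the apoptosome was listed at 0.482 to 1.92 FPKM while its ligand was listed at 73.7 to 143.6.

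**Figure D1:**
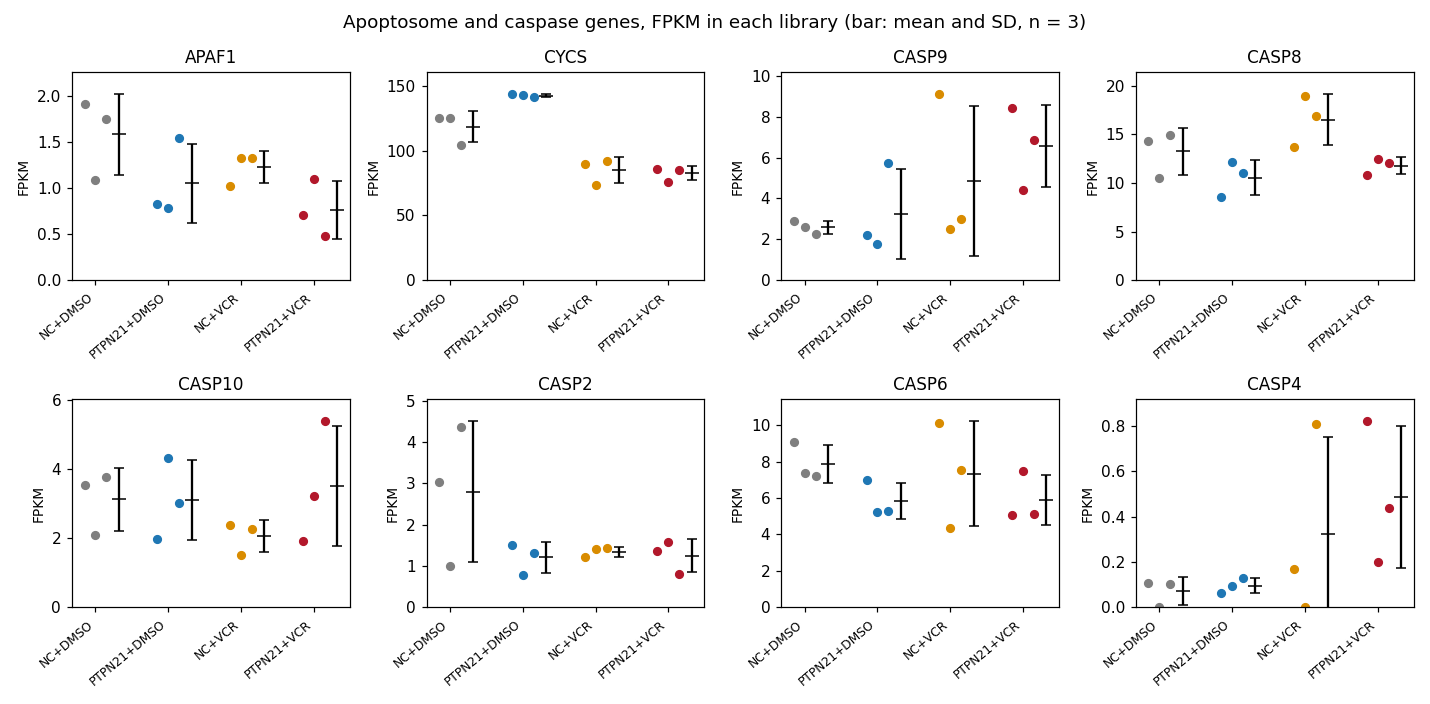
FPKM (linear axes from 0, one scale per gene) of the 8 genes in each of the 12 libraries. Points are libraries, and the bar beside them is the mean and SD of 3 (cut at 0 for CASP4 in NC+VCR). CYCS lies at 104.6 to 143.6 FPKM in the 6 DMSO libraries and at 73.7 to 92.1 in the 6 VCR libraries, whereas for each of the other genes some VCR libraries lie within the range of the DMSO libraries.

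limma was used to test differences of log2(FPKM + 1), on which changes of genes at a few FPKM appear smaller than they are, and all 4 groups entered the same model. Of 11591 genes with a mean of at least 1 FPKM, 7 were genes of this group, and CASP4, with a mean of 0.245 FPKM, was not tested. A gene was called where its p, adjusted by Benjamini-Hochberg over the 11591 genes, was below 0.05. CYCS, the gene of the cytochrome c that triggers the apoptosome, was the only one of the 7 to pass, and it fell with VCR in both kinds of cells. In NC+VCR vs NC+DMSO, 1 of 7 was called, beside 36.2% of all genes (28.3% lower and 7.91% higher). In PTPN21+VCR vs PTPN21+DMSO, 1 of 7 was called, beside 28.5% of all genes (19.3% lower and 9.22% higher). The medians of the 7 genes were -0.2 and 0.02, against -0.36 and -0.17 for all genes.

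CYCS was at 125.1, 125.5 and 104.6 FPKM in NC+DMSO and at 89.5, 73.7 and 92.1 FPKM in NC+VCR. All 3 VCR libraries lay below all 3 DMSO libraries, and CYCS was the single member whose groups did not overlap, beside 44.1% of all genes (33.9% lower and 10.2% higher). The log2 fold change was -0.47 (SE 0.118, adjusted p = 0.00895, limma with Benjamini-Hochberg), a 1.39-fold decrease. The median of all genes in this comparison was -0.36, so that CYCS fell by 0.11 more than the median gene. The call was lost when libraries were scaled by median ratios (log2 fold change -0.08, adjusted p = 0.685) and when NC+VCR and NC+DMSO were fitted alone (-0.47, adjusted p = 0.0531), and over all alternative settings the adjusted p of limma ranged from 0.00185 to 0.685.

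In PTPN21 cells, CYCS was at 143.6, 142.8 and 141.3 FPKM with DMSO and at 86.0, 76.2 and 85.3 FPKM with VCR. CYCS was again the single tested member whose groups did not overlap, beside 50.4% of all genes (33.3% lower and 17.0% higher). Its 3 DMSO libraries differed by a factor of only 1.02. The groups of CASP4, which was not tested, did not overlap either, at a level of few fragments. The log2 fold change was -0.78 (SE 0.118, adjusted p = 0.000544, limma with Benjamini-Hochberg), a 1.72-fold decrease, and 0.62 below the median gene, which was at -0.17. The call was made in all 9 alternative settings and in all 12 fits that left out one library, with adjusted p (limma) from 0.000286 to 0.00804. In bulk RNA, fewer cells of a type and less RNA per cell cannot be told apart.

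An erythroid marker moved with CYCS. HBA1, a gene of the alpha chain of hemoglobin, was at 82.5 to 87.5 FPKM in NC+DMSO and 49.4 to 57.8 in NC+VCR, and at 133.2 to 190.1 in PTPN21+DMSO and 60.1 to 75.4 in PTPN21+VCR. It was called lower in both VCR comparisons, by log2 fold changes of -0.65 and -1.12 (adjusted p = 0.00534 and 0.000214, limma with Benjamini-Hochberg), the first of which was not called under median ratio scaling (adjusted p = 0.278, limma). Its part in the fall of CYCS was not tested. The 9 T lineage markers, nearly all of it CD3D, summed to 62.2 to 96.1 FPKM in NC+DMSO and 107.3 to 131.3 in NC+VCR, against 116.4 to 141.2 in PTPN21+DMSO and 107.2 to 111.0 in PTPN21+VCR. Their part in the fall of CYCS was not tested.

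The larger fall of CYCS in PTPN21 cells started from a higher level. In PTPN21+DMSO all 3 libraries lay above those of NC+DMSO (141.3 to 143.6 against 104.6 to 125.5 FPKM), a log2 fold change of 0.27 (SE 0.118), which did not pass (adjusted p = 0.174, limma with Benjamini-Hochberg). With VCR the 2 kinds of cells overlapped at 76.2 to 86.0 and 73.7 to 92.1 FPKM, and the log2 fold change of PTPN21+VCR vs NC+VCR was -0.04, with a 95% interval of -0.3 to 0.22. The difference between the VCR effects in PTPN21 and NC cells, the interaction, was -0.31 (95% interval -0.67 to 0.05) and was not called (adjusted p = 0.416, limma with Benjamini-Hochberg). It is therefore not shown that CYCS fell further in PTPN21 cells. The genes with the most similar profiles, by the root mean square difference of centred log2 levels over 12 libraries, were UTP4 (0.0852) and H2BC5 (0.095), with mean levels from 38.3 to 22.9 and from 148.3 to 79.0 FPKM over the 4 groups.

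**Figure D2:**
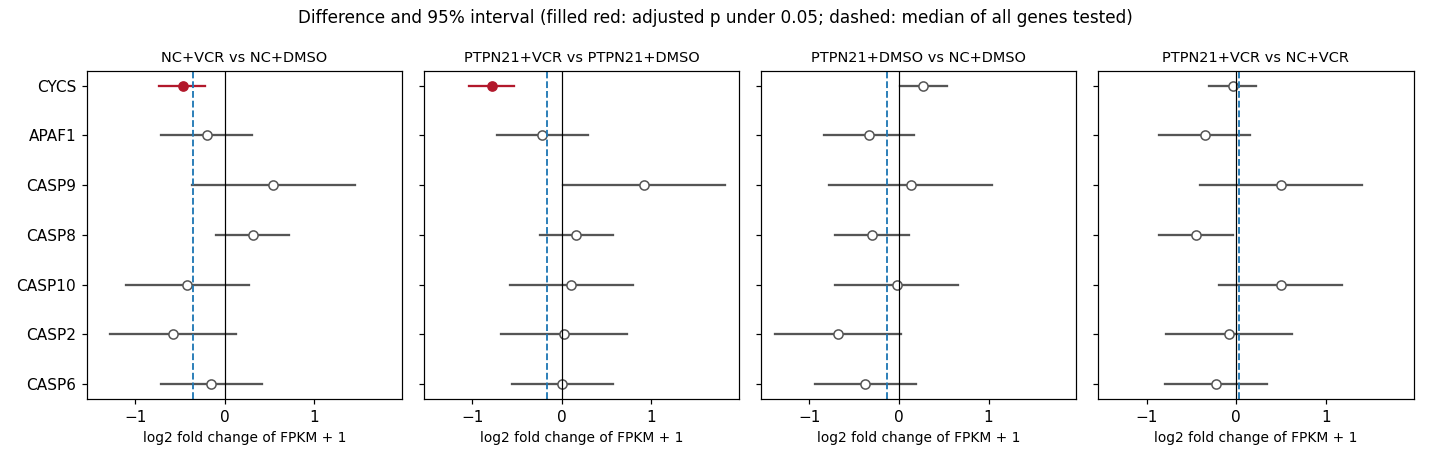
log2 fold change of FPKM + 1 (horizontal axis, points) with its 95% interval (lines) for the 7 genes tested, in 4 comparisons. Filled red points passed the adjusted threshold, and the dashed line is the median of all 11591 genes. CYCS with VCR (-0.47 and -0.78) holds the only filled points, and the intervals of CASP9 and CASP2 are the widest.

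APAF1, the scaffold of the apoptosome, was near the lowest level tested. It was at 1.92, 1.09 and 1.75 FPKM in NC+DMSO, 1.03, 1.33 and 1.33 in NC+VCR, 0.832, 0.784 and 1.55 in PTPN21+DMSO and 0.704, 1.1 and 0.482 in PTPN21+VCR. All groups overlapped in all 4 comparisons. The log2 fold change with VCR was -0.2 (95% interval -0.71 to 0.3) in NC cells and -0.22 (-0.72 to 0.29) in PTPN21 cells, and that of PTPN21 was -0.34 (-0.84 to 0.17) with DMSO and -0.35 (-0.86 to 0.15) with VCR. A fall of up to 0.71 or 0.72 with VCR thus lies within these intervals. The ratio of CYCS to APAF1, taken per library, averaged 80.1 ± 30.8 for NC+DMSO and 70.6 ± 15.9 for NC+VCR, and 148.7 ± 49.9 for PTPN21+DMSO and 122.8 ± 53.9 for PTPN21+VCR (SD, n = 3). The log2 ratio changed with VCR by -0.14 in NC cells (exact two-sided permutation p = 0.7) and by -0.31 in PTPN21 cells (exact p = 0.6). With PTPN21 it changed by 0.89 in DMSO (exact p = 0.2) and by 0.72 in VCR (exact p = 0.3), and with single libraries left out by 0.71 to 1.21 and 0.41 to 1.08. With 1 FPKM added to both levels, the changes with PTPN21 were 0.61 and 0.31. Those with VCR were then -0.27 in NC cells and -0.57 in PTPN21 cells. The smallest p that 3 libraries against 3 allow is 0.1, so these tests could not pass 0.05 and do not show that the ratios are alike.

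CASP9, the initiator caspase that the apoptosome activates, varied more between replicates than any other gene tested here. It was at 2.88, 2.62 and 2.26 FPKM in NC+DMSO and at 9.11, 2.51 and 2.98 FPKM in NC+VCR. A single VCR library was thus high while the other 2 lay near the controls. The log2 fold change was 0.54 (SE 0.417, adjusted p = 0.328, limma with Benjamini-Hochberg), and it was 0.06 without NC+VCR replicate 1. In PTPN21 cells CASP9 was at 2.21, 1.76 and 5.75 FPKM with DMSO and at 8.41, 4.44 and 6.87 FPKM with VCR. Here 1 DMSO library lay within the VCR range. The log2 fold change was 0.92 (95% interval 0.01 to 1.82, adjusted p = 0.122, limma with Benjamini-Hochberg), and it passed only without PTPN21+DMSO replicate 3 (1.31, adjusted p = 0.0436). The pooled SD of CASP9 within groups was 0.582 on the log2 scale, against a median of 0.357 over 2193 genes of similar mean level, of which 85.3% had a smaller SD. CASP9 was therefore the member with the largest estimate upward with VCR in both kinds of cells and the one whose estimate was least certain. PTPN21 gave 0.13 (95% interval -0.78 to 1.04) with DMSO and 0.5 (-0.4 to 1.41) with VCR.

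CASP8, the initiator of the death receptor pathway, was the most abundant of these caspases. It was at 14.3, 10.5 and 14.9 FPKM in NC+DMSO, 13.7, 18.9 and 16.9 in NC+VCR, 8.53, 12.1 and 11 in PTPN21+DMSO and 10.8, 12.5 and 12 in PTPN21+VCR. With VCR the 3 PTPN21 libraries lay below the 3 controls, the single member whose groups did not overlap in this comparison, beside 22.5% of all genes (10.2% lower and 12.3% higher). No member was called in PTPN21+VCR vs NC+VCR, beside 1.82% of all genes (0.82% lower and 1.0% higher), and CASP8 alone had an unadjusted p under 0.05 in limma. Its log2 fold change there was -0.45 (SE 0.188, 95% interval -0.86 to -0.04, adjusted p = 0.25, limma with Benjamini-Hochberg). VCR gave 0.31 (-0.1 to 0.72) in NC cells, which is 0.67 above the median gene, and 0.16 (-0.25 to 0.57) in PTPN21 cells. The first of these passed under median ratio scaling (0.67, adjusted p = 0.0155, limma) and quantile normalization (0.64, adjusted p = 0.0194, limma), and in none of the other 7 settings.

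**Figure D3:**
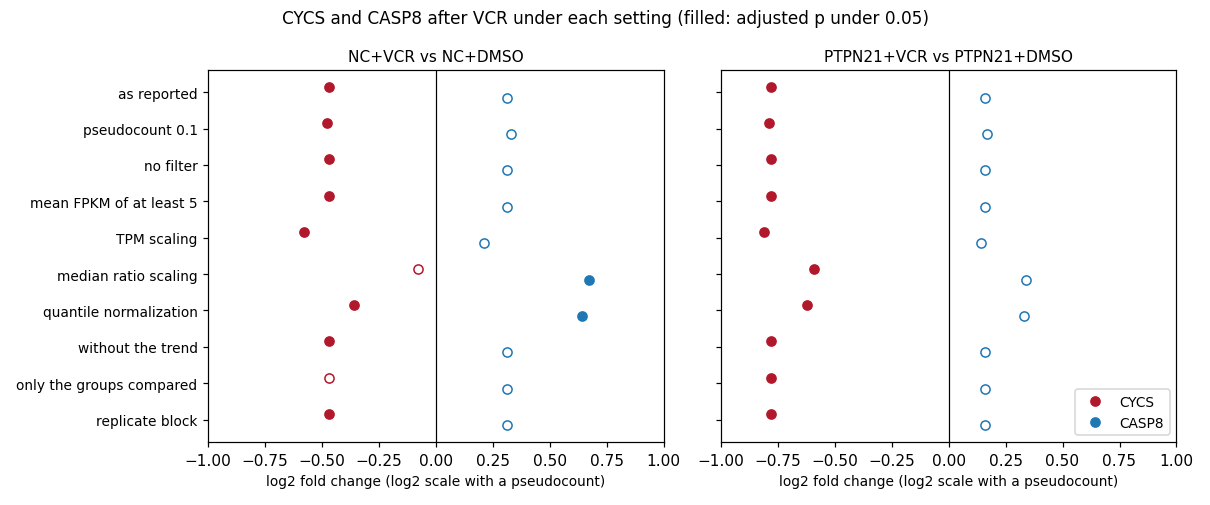
log2 fold change (horizontal axis) of CYCS (red) and CASP8 (blue) with VCR in NC cells (left) and PTPN21 cells (right), for the fit as reported and 9 other settings (rows). Filled points had an adjusted p under 0.05. In NC cells the scaling by median ratios moves CYCS from -0.47 to -0.08 and CASP8 from 0.31 to 0.67, and in PTPN21 cells CYCS stays filled from -0.81 to -0.59.

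CASP10, the neighbour of CASP8 with a similar place at death receptors, was lower and more variable. It was at 3.53, 2.09 and 3.76 FPKM in NC+DMSO, 2.39, 1.52 and 2.28 in NC+VCR, 1.99, 4.31 and 3.01 in PTPN21+DMSO and 1.93, 3.21 and 5.38 in PTPN21+VCR. All 4 comparisons overlapped. The largest of its differences was 0.5 in PTPN21+VCR vs NC+VCR (95% interval -0.19 to 1.18, adjusted p = 0.459, limma with Benjamini-Hochberg), where CASP8 had a difference of the other sign. The test of either gene in this comparison did not pass, so no opposite movement of the neighbours is shown. CFLAR, the other gene of this cluster, was at 10.6 to 16.1, 7.55 to 17.6, 9.19 to 11.6 and 6.02 to 7.83 FPKM in NC+DMSO, NC+VCR, PTPN21+DMSO and PTPN21+VCR, and was not called in any comparison.

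CASP2, an initiator activated on the PIDDosome, differed widely between its NC+DMSO libraries, and its tests depended on which of them were kept. It was at 3.04, 0.998 and 4.37 FPKM in NC+DMSO, 1.21, 1.41 and 1.43 in NC+VCR, 1.52, 0.794 and 1.32 in PTPN21+DMSO and 1.37, 1.58 and 0.802 in PTPN21+VCR. NC+DMSO replicates 1 and 3 lay above all other libraries, and replicate 2 lay among them. The log2 fold change was -0.58 (SE 0.323, adjusted p = 0.177, limma with Benjamini-Hochberg) in NC+VCR vs NC+DMSO and -0.68 (SE 0.323, adjusted p = 0.208) in PTPN21+DMSO vs NC+DMSO. Without NC+DMSO replicate 2 both passed, at -0.99 (adjusted p = 0.0143, limma) and -1.09 (adjusted p = 0.0251, limma). Without NC+DMSO replicate 3 they shrank to -0.27 (adjusted p = 0.534, limma) and -0.38 (adjusted p = 0.584, limma). Which of these libraries is the unusual one cannot be told from 3. In PTPN21 cells VCR gave 0.02 with an interval of -0.68 to 0.73.

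CASP6, an executioner caspase that cleaves lamins, came next below CASP8 in NC+DMSO. It was at 9.05, 7.35 and 7.21 FPKM in NC+DMSO and 7.0, 5.23 and 5.31 FPKM in PTPN21+DMSO. The PTPN21 libraries all lay below the controls, with a log2 fold change of -0.38 (SE 0.26, adjusted p = 0.39, limma with Benjamini-Hochberg). CASP6 and CYCS were the 2 members whose groups did not overlap in PTPN21+DMSO vs NC+DMSO, beside 33.4% of all genes (21.9% lower and 11.5% higher). No member was called there, beside 6.34% of all genes (3.69% lower and 2.65% higher), and CYCS alone had an unadjusted p under 0.05 in limma. With VCR, CASP6 was at 10.1, 4.37 and 7.52 FPKM in NC cells and 5.07, 7.5 and 5.11 in PTPN21 cells, a spread that covered its DMSO levels. The VCR effect was -0.15 (95% interval -0.71 to 0.42) in NC cells and 0.0 (-0.56 to 0.57) in PTPN21 cells.

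CASP4, an inflammatory caspase that senses bacterial lipopolysaccharide, was barely detected. It was listed at 0.108, 0 and 0.104 FPKM in NC+DMSO, 0.168, 0 and 0.808 in NC+VCR, 0.0651, 0.0939 and 0.13 in PTPN21+DMSO and 0.82, 0.202 and 0.439 in PTPN21+VCR. All 3 PTPN21+VCR libraries lay above the 6 DMSO libraries, at a level of few fragments, and no test was made.

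No member was called for the interaction of PTPN21 and VCR, beside 0.129% of all genes (0.104% lower and 0.0259% higher), and none had an unadjusted p under 0.05 in limma. The estimates ranged from -0.31 for CYCS to 0.6 for CASP2, and the narrowest interval of a caspase, that of CASP8, ran from -0.73 to 0.43. Differences of the VCR effect within these intervals cannot be told from 0 with 3 libraries per group.

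Partners and substrates were described from lists written with earlier results of these data known. CFLAR, TNFRSF1A, LMNB2 and PARP1 were picked by the study from these same libraries, so their direction is no independent evidence. Of other caspase genes, CASP1, CASP12 and CASP14 were listed at 0 in all 12 libraries and CASP5 in 11.

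Mitochondrial death proteins and regulators of the apoptosome gave calls mostly toward lower levels with VCR, as did all genes. Of 11 tested (12 in the list), 5 fell and none rose in NC cells, beside 28.3% lower and 7.91% higher over all genes, with a median of -0.41 against -0.36 for all genes. In PTPN21 cells 7 fell and 1 rose, beside 19.3% lower and 9.22% higher over all genes, with a median of -0.61 against -0.17. The largest falls in NC cells were those of ENDOG, a mitochondrial endonuclease (-0.95), CSE1L, an apoptosome cofactor and nuclear export factor (-0.65), HCCS, which attaches heme to cytochrome c (-0.55), and ANP32A (-0.54). None of the 5 calls in NC cells held under all 3 other scalings (TPM, median ratio and quantile), although all kept their sign. In PTPN21 cells 5 of 8 held, among them ENDOG (-1.15), the protease HTRA2 (-1.12) and ANP32A (-0.94). XIAP, an inhibitor of CASP9, rose by 1.23 in these cells. The XIAP call also held under the 3 scalings, but it was lost in 3 of 12 fits that left out a library (highest adjusted p 0.0672, limma), and its DMSO libraries were at 0.338, 0.477 and 2.6 FPKM. Between PTPN21 and control cells, 1 of 11 was called with DMSO (6.34% of all genes) and 1 with VCR (1.82% of all genes). With DMSO it was APIP, an inhibitor of APAF1 (0.53, lost in 7 of the 12 fits that left out a library). With VCR it was HSPA1A, a chaperone that binds APAF1 (-0.93).

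Of the partners of the death receptor complex and the PIDDosome, 9 were tested (12 in the list). With VCR, 1 rose and 3 fell in NC cells, beside 36.2% of all genes called, and 2 fell in PTPN21 cells, beside 28.5%. Their medians were -0.21 and -0.33, against -0.36 and -0.17 for all genes. The rise was that of the receptor TNFRSF1A (0.92, adjusted p = 0.00384, limma with Benjamini-Hochberg), from 4.2 to 5.61 FPKM in NC+DMSO to 9.03 to 10.9 in NC+VCR. CRADD, the adaptor that brings CASP2 to the PIDDosome, fell by 0.92 in NC cells, TNFRSF10A fell by 0.62 and RIPK1 by 0.54, the last with a call kept in 1 of 12 fits that left out a library. Of these, TNFRSF1A alone held under all 3 scalings. In PTPN21 cells TRADD fell by 1.01 and TNFRSF10A by 0.61. The TNFRSF10A call in PTPN21 cells was lost under median ratio scaling (adjusted p = 0.0605, limma) and quantile normalization (adjusted p = 0.0629, limma) and in 2 of 12 fits that left out a library. FADD, the adaptor of CASP8 and CASP10, was at 9.34 to 19.3 FPKM and was not called in any comparison. FAS reached at most 0.0542 FPKM and FASLG 0.343. No gene of this list was called between PTPN21 and control cells, beside 6.34% of all genes with DMSO and 1.82% with VCR. With VCR, 2 of 9 had groups that did not overlap, beside 22.5% of all genes. TNFRSF1A was lower in PTPN21+VCR (4.23 to 6.88 FPKM against 9.03 to 10.9), and CRADD was higher (12.6 to 14.5 against 7.01 to 12.3).

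Caspase substrates moved in both directions. Of 15 tested, 4 rose and 6 fell with VCR in NC cells, beside 36.2% of all genes called, with a median of -0.49 against -0.36 for all genes. In PTPN21 cells 4 rose and 2 fell, beside 28.5% of all genes called, with a median of -0.16 against -0.17. The largest changes in NC cells were those of VIM, an intermediate filament gene (2.58), GSN, which severs actin (1.46), PRKDC, a DNA repair kinase (-1.45), and SPTAN1, a spectrin (1.45). VIM rose from 189.6 to 204.9 FPKM in NC+DMSO to 1012.4 to 1315.2 FPKM in NC+VCR, and all 3 libraries lay above the controls. In PTPN21 cells VIM (2.25), SPTAN1 (1.88) and GSN (1.69) rose and ACIN1, a factor in chromatin condensation, fell by 1.08. All 4 held under the 3 other scalings. Between PTPN21 and control cells, 4 of 15 were called with DMSO (6.34% of all genes) and 1 with VCR (1.82% of all genes). Over the other settings, 0 to 6 were called with DMSO and 0 to 1 with VCR. The calls with DMSO were PRKDC (-1.1), LMNB1, a nuclear lamin (-0.94), VIM (0.57) and PARP1, a DNA damage sensor (-0.49). The call with VCR was ACIN1 (-0.73). Each of these 5 calls was lost in at least 4 of the 12 fits that left out a library.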

How the data were processed

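RNA of 12 libraries was sequenced, and an external company did the analysis for the authors. A single table, deposited by the authors, holds FPKM per gene and library. Their processing notes name fastp and Bowtie2 without versions, and a mouse build, mm10, which does not match the human Ensembl identifiers of the table. The counting program, the annotation and the strand setting are not given in the sources used here. Total counts are not in the sources used here, so depth was compared only in relative terms, from the most frequent ratio of low FPKM values to those of NC+DMSO replicate 1. The smoothing and limits of this estimate were chosen after seeing the data. Depth limits mainly genes at a few FPKM.

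The deposited FPKM were converted to log2(FPKM + 1), and 11591 genes averaging at least 1 FPKM over the libraries entered the tests. The 4 group means were modelled in limma 3.58.1 (R 4.3.3), with the prior variance following a trend on mean level, and 5 comparisons were taken from that model, each adjusted by Benjamini-Hochberg across genes. The ratio of CYCS to APAF1 was tested by exact permutation in scipy 1.17.1. The fit was tested on simulated data. Some genes of the lists are not reported here. Groups came from the sample labels. The 8 genes and the related lists were chosen with earlier results of these data known. All 8 genes were described, and of each list up to 4 called genes with the largest change per comparison were named, with the 2 nearest profiles of each called member. CFLAR, FADD, FAS, FASLG, NRF1, CASP1, CASP5, CASP12 and CASP14 were named outside that rule after their values were seen, as were HBG2 and GATA1. Every value was recomputed with a pseudocount of 0.1, without the filter, with a minimum mean of 5 FPKM, and with TPM, median ratio or quantile scaling, no trend, only the groups compared or a replicate block, and 12 times with 1 library left out. Summaries used pandas 2.3.3 and numpy 2.4.6 under Python 3.11.15, and figures matplotlib 3.10.9.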

Additional observations from a re-analysis of the deposited data

How the results depend on the processing

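Of 288 values that the 7 genes had over the 9 other settings (at a minimum mean of 5 FPKM, APAF1, CASP2, CASP9 and CASP10 were not tested), 273 kept their sign and their side of the threshold, 2 were no longer called, 2 were newly called and 11 changed sign; none of the 11 was called. With single libraries left out, 392 of 420 kept both, 3 were newly called and 25 changed sign. In NC+VCR vs NC+DMSO, quantile normalization called 2 genes (CYCS and CASP8), the fit of only the groups compared called 0, and median ratio scaling called 1, CASP8 in place of CYCS. The cause was not tested. With median ratio scaling and quantile normalization, CASP6 in NC+VCR vs NC+DMSO became 0.2 and 0.25, its interaction -0.03 and -0.06, CASP10 in PTPN21+DMSO vs NC+DMSO 0.11 and 0.16, and APAF1 in NC+VCR vs NC+DMSO 0.03 and 0.22. CASP10 in NC+VCR vs NC+DMSO became 0.01 with quantile normalization. With TPM scaling, CASP6 in PTPN21+VCR vs PTPN21+DMSO became -0.02 and the interaction of APAF1 0.04. Leaving out one library gave 1 to 2 called genes in NC+VCR vs NC+DMSO, 1 to 2 in PTPN21+VCR vs PTPN21+DMSO and 0 to 1 in PTPN21+DMSO vs NC+DMSO. Estimates that crossed 0 in these fits ranged from -0.38 to 0.14 (CASP6, NC+VCR vs NC+DMSO), -0.16 to 0.12 (CASP6, PTPN21+VCR vs PTPN21+DMSO), -0.51 to 0.01 (CASP6, PTPN21+VCR vs NC+VCR), -0.14 to 0.39 (CASP6, interaction), -0.15 to 0.15 (APAF1, interaction), -0.12 to 0.18 (CASP2, PTPN21+VCR vs PTPN21+DMSO), -0.19 to 0.07 (CASP2, PTPN21+VCR vs NC+VCR), -0.18 to 0.38 (CASP10, PTPN21+VCR vs PTPN21+DMSO), -0.23 to 0.19 (CASP10, PTPN21+DMSO vs NC+DMSO), -0.27 to 0.38 (CASP9, PTPN21+DMSO vs NC+DMSO) and -0.14 to 0.02 (CYCS, PTPN21+VCR vs NC+VCR). The log2 ratio of CYCS to APAF1 ranged from -0.32 to 0.16 with VCR in NC cells and from -0.63 to 0.05 in PTPN21 cells.

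No shared effect of the replicate number was seen, since deviations from the group means correlated at -0.145 to 0.0583 in the 18 same-numbered pairs. This does not tell whether the libraries were prepared in pairs. With the replicate number as a block, the counts of called members were 1, 1, 0, 0 and 0 as without it, and CYCS had -0.47 (adjusted p = 0.0172, limma) and -0.78 (adjusted p = 0.00189, limma). Over the 9 settings, the share of all genes called ranged from 13% to 42.8% in NC+VCR vs NC+DMSO, 9.89% to 38.3% in PTPN21+VCR vs PTPN21+DMSO, 0.345% to 14.2% in PTPN21+DMSO vs NC+DMSO, 0.419% to 5.15% in PTPN21+VCR vs NC+VCR and 0.0284% to 0.19% for the interaction. Of the called genes, 21.9% were higher in NC+VCR vs NC+DMSO, against 55.8% with median ratio scaling and 52.5% with quantile normalization, and the median of all genes moved from -0.36 to -0.04 and -0.02. In PTPN21+VCR vs PTPN21+DMSO the share was 32.3%, against 52.2% and 51.6%, and in PTPN21+DMSO vs NC+DMSO 41.8%, against 73.6% and 54.5%, with 21.0% for TPM scaling.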

Other observations

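Genes of the BCL2 family, which control the release of cytochrome c from mitochondria, and transcription factors with known sites in promoters of apoptosis genes were measured in the same libraries. Of 10 BCL2 family genes tested (14 in the list), 1 rose and 3 fell with VCR in NC cells and 2 rose and 5 fell in PTPN21 cells, beside 36.2% and 28.5% of all genes called. Their medians were -0.45 and -0.49 on the log2 scale, against -0.36 and -0.17 for all genes. PMAIP1, the gene of the BH3-only protein NOXA, rose from 14.9 to 20.4 FPKM in NC+DMSO to 49.5 to 60.8 in NC+VCR (log2 fold change 1.55, adjusted p = 6.85e-05, limma) and from a median of 15.3 in PTPN21+DMSO to 64.0 in PTPN21+VCR (1.96, adjusted p = 1.25e-05, limma). BCL2L1, the gene of antiapoptotic BCL-XL, fell by 2.45 in NC cells and by 1.5 in PTPN21 cells, and BAD, a BH3-only gene, fell by 1.37 and by 1.2. These 6 calls held under TPM, median ratio and quantile scaling and in all 12 fits that left out a library. BID, which CASP8 cleaves, fell by 0.87 in NC cells, a call lost under 2 of the 3 scalings, and BIK fell by 1.64 in PTPN21 cells. No gene of the family was called between PTPN21 and control cells, beside 6.34% of all genes with DMSO and 1.82% with VCR.

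Among the transcription factor genes, GABPA fell by 0.85 with VCR in NC cells, a call lost in 10 of 12 fits that left out a library, and E2F1 fell by 0.86 in PTPN21 cells. NRF1, whose motif core is in the CYCS window, was at 4.85 to 8.01 FPKM in NC+DMSO, 2.97 to 4.05 in NC+VCR, 2.23 to 6.64 in PTPN21+DMSO and 3.12 to 4.67 in PTPN21+VCR, and it was not called (adjusted p = 0.118 with VCR in NC cells, limma).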
